A study of Mus musculus with 13 samples.

Results

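The genes described here make cholesterol and fatty acids, sense sterols or move sterols within or out of the cell. They are 32 genes chosen by name for these functions, with earlier results of these data known, and looked up by Ensembl identifier in the RNA-seq table. Of the 32, 31 had a row in the table of 17849 genes, 30 of these passed the filter on low counts, and Hmgcs1 was not analysed here. They are not the whole pathway. RNA was measured in sorted CD4+CD8+ double-positive thymocytes of mice, immature T cells that carry both coreceptors. There were 2 libraries labelled Rad21 KO and 2 labelled wild type. Rad21 is a subunit of the DNA-encircling cohesin complex. The labels of these 4 libraries leave out the method and cell type of its deletion, the strain, age and sex, and whether the libraries came from separate mice. The p-values below therefore measure the spread between these libraries, which may be technical. The design text states that the aim was to relate cohesin loss to transcription.

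Cells build cholesterol from acetyl-CoA through mevalonate, isoprenoids, squalene and lanosterol, and build fatty acids from the same precursor. When membrane sterol is low, the escort protein SCAP carries the SREBP transcription factors from the endoplasmic reticulum to the Golgi, where they are cleaved and then activate the synthesis genes. INSIG proteins hold SCAP back when sterol is plentiful. When oxysterols accumulate, the LXR nuclear receptors activate genes of sterol export such as Abca1 and Abcg1. Dividing T cells need both sterol and fatty acid synthesis, while double-positive thymocytes are mostly resting.

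The libraries had totals of 6914654 to 9384505 counts in Rad21 KO cells and 6500819 to 6633506 in wild type cells. Levels are given as CPM, counts scaled to library size with the TMM factors of edgeR, and are compared between libraries within a gene, not between genes, since they are not corrected for gene length. Fold changes are fitted log2 ratios of Rad21 KO over wild type with their standard error (SE). Every adjusted p below is from edgeR's quasi-likelihood test with Benjamini-Hochberg adjustment over all 12003 tested genes, and a gene was called at an adjusted p below 0.05. As a check of the labels, Rad21 RNA stood at 67.9 and 65.7 CPM in the Rad21 KO libraries, against 271 and 233 CPM in the wild type libraries. The genes Lars2 and Gm15564 took 34.5% and 12.6% of the counts in the Rad21 KO libraries, against 5.84% and 7.47% in the wild type libraries. Leaving both genes out kept all 6 calls made below. Of 10 double-positive thymocyte markers, Rag1, Rag2 and Dntt were called lower in the Rad21 KO libraries and 7 were not called, where 5.17% of all tested genes were called lower. The log2 fold change was below 0 in 9 of the 10, with a median of -0.31, and in 7 both Rad21 KO libraries lay below both wild type libraries. Cd4 stood at -0.48 and Cd8a at -0.34, neither of them called. The part of this difference in the results below was not tested.

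Most of the cholesterol and lipid synthesis genes were not called, and those that were called were all higher in Rad21 KO cells. Of the 30 tested genes, 6 rose (20.0%): the sterol demethylase Cyp51, the SREBP escort Scap, the SREBP retention factor Insig1, the fatty acid synthase Fasn and the sterol exporters Abca1 and Abcg1. Of all tested genes, 12.8% were called, 7.60% as higher and 5.17% as lower. DESeq2 and limma-voom each also called 6 of the 30 higher and 0 lower, the same 6 genes. At an unadjusted p below 0.05, edgeR's test gave 11 higher and 3 lower. Together these were 46.7% of the 30, against 29.4% of all tested genes in either direction. The median log2 fold change of the 30 was 0.15, against -0.01 for all tested genes. In 14 of the 30 both Rad21 KO libraries lay above both wild type libraries and in 5 both lay below. Among all tested genes the groups did not overlap in 58.9%, with 29.7% above and 29.2% below. The median difference between replicates on the log2 scale was 0.16 between the Rad21 KO libraries and 0.26 between the wild type libraries for the members. Over all tested genes it was 0.19 and 0.17, so the wild type libraries were further apart in these genes than in most.

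**Figure D1:**
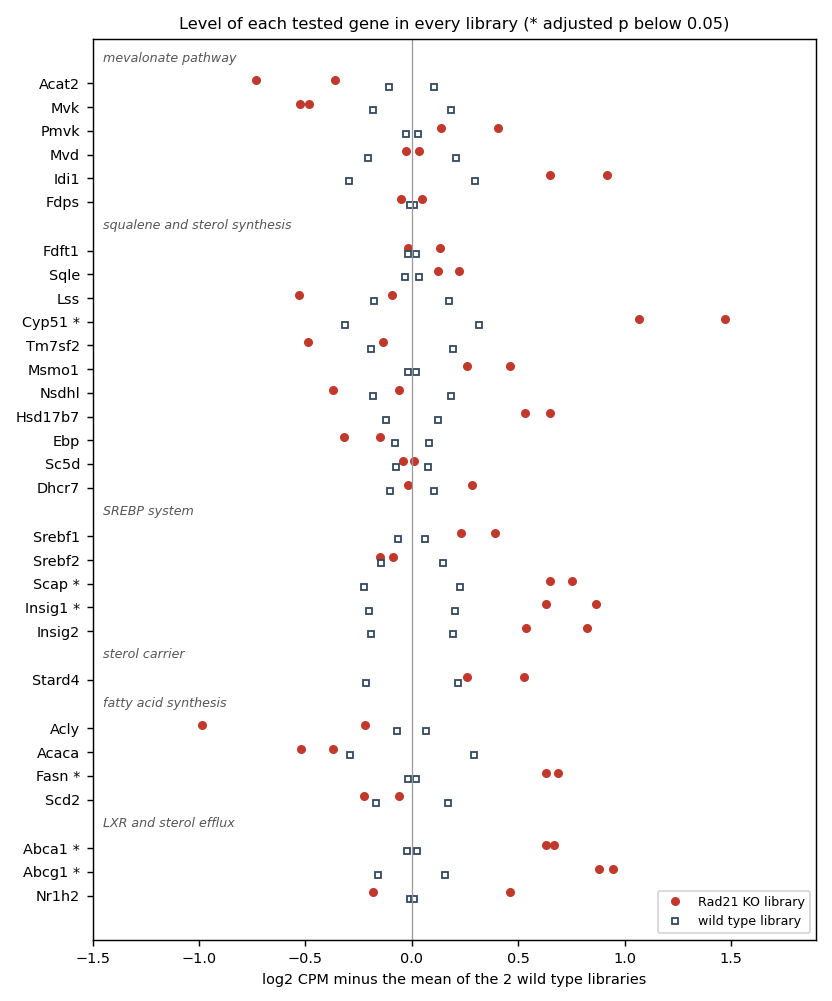
Level of each of the 30 tested genes in every library, as log2 CPM minus the mean of the 2 wild type libraries, ordered by role. Filled circles are Rad21 KO libraries, open squares are wild type libraries, and an asterisk marks an adjusted p below 0.05; the 6 marked genes have both circles to the right of both squares.

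Promoter sequences were available for 25 of the 32 genes, as 33 windows from 250 bases before to 50 bases after an annotated transcription start, taken from RefSeq on the GRCm38.p6 build. The count table was made on mm9 per the submitters' processing notes, so these coordinates apply to GRCm38.p6 alone. The windows of 4 genes that rose and have 1 annotated start are shown because these genes moved in the same direction and represent sterol synthesis, sterol sensing, fatty acid synthesis and sterol export. Capitals mark the CCAAT box bound by NF-Y (CCAAT or its reverse complement ATTGG), the GC box bound by Sp1 (GGGCGG or CCGCCC) and the E-box (CACGTG). NF-Y and Sp1 are known partners of SREBP at its target promoters.
Cyp51, chr5:4104648-4104947, minus strand: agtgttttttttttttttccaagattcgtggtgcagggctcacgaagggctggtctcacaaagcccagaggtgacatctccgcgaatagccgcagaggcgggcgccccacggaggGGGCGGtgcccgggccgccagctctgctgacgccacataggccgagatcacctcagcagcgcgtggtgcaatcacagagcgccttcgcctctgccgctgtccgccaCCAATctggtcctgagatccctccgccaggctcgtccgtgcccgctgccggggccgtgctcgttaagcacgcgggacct
Insig1, chr5:28071162-28071461, plus strand: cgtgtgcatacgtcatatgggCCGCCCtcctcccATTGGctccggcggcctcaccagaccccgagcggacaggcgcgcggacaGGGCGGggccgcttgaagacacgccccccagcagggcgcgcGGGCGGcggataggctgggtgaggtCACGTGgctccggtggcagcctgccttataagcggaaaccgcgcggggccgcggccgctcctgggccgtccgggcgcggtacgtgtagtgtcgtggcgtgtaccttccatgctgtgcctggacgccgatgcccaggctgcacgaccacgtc
Fasn, chr11:120824498-120824797, minus strand: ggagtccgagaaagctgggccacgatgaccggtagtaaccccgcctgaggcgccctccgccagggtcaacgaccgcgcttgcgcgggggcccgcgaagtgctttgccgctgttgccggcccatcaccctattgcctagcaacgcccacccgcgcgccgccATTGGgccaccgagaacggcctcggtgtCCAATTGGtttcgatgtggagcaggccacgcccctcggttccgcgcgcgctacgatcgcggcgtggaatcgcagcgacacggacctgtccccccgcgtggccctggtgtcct
Abca1, chr4:53159846-53160145, minus strand: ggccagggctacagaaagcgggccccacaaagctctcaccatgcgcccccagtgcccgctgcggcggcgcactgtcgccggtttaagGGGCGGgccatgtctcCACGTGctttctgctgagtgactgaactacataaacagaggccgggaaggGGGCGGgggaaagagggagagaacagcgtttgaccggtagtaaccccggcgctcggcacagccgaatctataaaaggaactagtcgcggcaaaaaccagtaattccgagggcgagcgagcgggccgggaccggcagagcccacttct
The Cyp51 window held 1 CCAAT box and 1 GC box, and the Insig1 window held 1 CCAAT box, 3 GC boxes and 1 E-box. The Fasn window held 3 CCAAT boxes, 2 of which overlap in the run CCAATTGG. The Abca1 window held 2 GC boxes and 1 E-box. Both overlapping windows of Scap held an E-box and at least 1 GC box.

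Over the 33 windows, searched on both strands, CCAAT occurred in 21 (63.6%), against 37.4% of all 32851 promoter windows of the same length and 38.2% of the 21262 windows of protein-coding genes. GGGCGG occurred in 25 (75.8%), against 35.7% of all windows and 46.2% of protein-coding ones. CACGTG occurred in 7 (21.2%), against 7.15% and 7.84%. The motif TCACNCCAC, a form of the sterol regulatory element, occurred in 1 window, that of Hmgcs1, and in 1.24% of all windows. The LXR direct repeat, searched in its exact consensus form with a 4-base spacer, occurred in 0 of the 33 windows and in 5 of all windows. It also occurred in 0 of the 21262 windows of protein-coding genes. Forms that differ from the consensus in any letter were not searched, so this search cannot show whether these windows hold an LXR site. These matches describe letters in a short window. Some genes have several windows, some of which overlap, and several genes that rose and several that were not called hold the same motifs. Fdps, Fdft1, Sqle, Stard4, Scd1, Scd2 and Abcg1 are not among the windows.

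Genes of the mevalonate pathway, which turns acetyl-CoA into farnesyl diphosphate, were not called in either direction. Of 6 tested, edgeR, DESeq2 and limma-voom called 0, where edgeR called 12.8% of all tested genes. At an unadjusted p below 0.05 by edgeR 1 was higher and 2 lower. Of all tested genes 29.4% passed that limit in either direction. The largest difference was in Idi1, the isomerase that makes the second isoprenoid building block, at 15.7 and 13.1 CPM in Rad21 KO libraries, against 10.2 and 6.79 CPM in wild type libraries (log2 fold change 0.76, SE 0.26, adjusted p = 0.107). Both Rad21 KO libraries lay above both wild type libraries. Acat2, the thiolase that joins acetyl units, pointed the other way with 12.0 and 9.31 CPM in Rad21 KO libraries, against 16.7 and 14.4 CPM in wild type libraries (log2 fold change -0.54, SE 0.22, adjusted p = 0.153). The mouse has a closely similar gene, Acat3, so its count is uncertain. Mevalonate kinase Mvk likewise had both Rad21 KO libraries, at 9.72 and 10.0 CPM, below both wild type libraries, at 15.8 and 12.3 CPM (log2 fold change -0.51, SE 0.22, adjusted p = 0.170).

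The next enzymes of this stretch showed small differences. The phosphomevalonate kinase Pmvk had 17.4 and 14.5 CPM in Rad21 KO libraries, against 13.4 and 12.9 CPM in wild type libraries (log2 fold change 0.28, SE 0.19). The decarboxylase Mvd had 5.34 and 5.56 CPM in Rad21 KO libraries, against 6.29 and 4.71 CPM in wild type libraries. Fdps, which makes farnesyl diphosphate, had 21.8 and 20.3 CPM in Rad21 KO libraries, against 21.2 and 20.9 CPM in wild type libraries. The groups overlapped in Mvd and Fdps, whose log2 fold changes were -0.01 (SE 0.30) and -0.001 (SE 0.16), and whose sign turned when single libraries were left out.

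In the sterol stretch, from squalene to cholesterol, Cyp51 alone rose. Cyp51 (ENSMUSG00000001467) encodes lanosterol 14-alpha-demethylase, the cytochrome P450 that removes a methyl group from lanosterol. It had 33.1 and 43.9 CPM in the Rad21 KO libraries, against 19.7 and 12.7 CPM in the wild type libraries. Every Rad21 KO library was above every wild type library, and the replicates of each genotype were well apart. The fitted change was 2.37-fold (log2 fold change 1.25, SE 0.24, adjusted p = 0.0210), with a mean of 38.5 ± 7.63 CPM in Rad21 KO and 16.2 ± 4.90 CPM in wild type cells (SD, n = 2 libraries each). Without single libraries the log2 fold change lay between 0.96 and 1.59, with Cyp51 called in each case. It was not called when the replicate number was a block (1.26) or when low counts were left unfiltered (1.24).

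The other enzymes of the sterol stretch did not pass the threshold. The 3-keto reductase Hsd17b7 came nearest, with 19.2 and 17.7 CPM in Rad21 KO libraries, against 11.2 and 13.3 CPM in wild type libraries (log2 fold change 0.59, SE 0.19, adjusted p = 0.0898). The C4-methyl oxidase Msmo1 had 36.0 and 31.3 CPM in Rad21 KO libraries, against 26.5 and 25.8 CPM in wild type libraries (log2 fold change 0.36, SE 0.15, adjusted p = 0.159). In both genes the groups did not overlap. Squalene epoxidase Sqle, a main control point of the stretch, had 27.9 and 29.9 CPM in Rad21 KO libraries, against 26.2 and 25.1 CPM in wild type libraries (log2 fold change 0.17, SE 0.15, adjusted p = 0.487). The difference was small beside that of Cyp51.

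The remaining sterol enzymes were not called in either direction. The squalene synthase Fdft1 had 10.7 and 11.8 CPM in Rad21 KO libraries, against 10.7 and 10.9 CPM in wild type libraries, and a log2 fold change of 0.06 (SE 0.20). The lanosterol synthase Lss had 28.5 and 21.0 CPM in Rad21 KO libraries, against 34.3 and 26.9 CPM in wild type libraries (log2 fold change -0.31, SE 0.21). The sterol reductase Tm7sf2 stood at -0.31 (SE 0.31), the dehydrogenase Nsdhl at -0.22 (SE 0.26) and the isomerase Ebp at -0.23 (SE 0.19) on the scale of log2 fold change. Sc5d, which places the C5 double bond, stood at -0.02 (SE 0.15). Dhcr7, the last step of 1 branch, had 91.0 and 74.1 CPM in Rad21 KO libraries, against 80.5 and 69.8 CPM in wild type libraries (log2 fold change 0.14, SE 0.15). Of these 7 genes, Ebp alone had groups that did not overlap, where the groups did not overlap in 58.9% of all tested genes. In the whole stretch of 11 tested genes 1 rose (9.09%) and 0 fell, also by DESeq2 and limma-voom. Of all tested genes, edgeR called 12.8%, with 7.60% higher. At an unadjusted p below 0.05 by edgeR 3 of the 11 were higher and 0 lower. Of all tested genes 29.4% passed that limit in either direction. The median log2 fold change was 0.06.

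The SREBP system, which senses sterol, had 2 of 5 genes called, both higher, and 4 of 5 with both Rad21 KO libraries above both wild type libraries. Over all tested genes the shares were 12.8% called, 7.60% called higher and 29.7% with both Rad21 KO libraries above. Its median log2 fold change was 0.67. Insig1 (ENSMUSG00000045294), itself a target of SREBP, had 113 and 133 CPM in the Rad21 KO libraries, against 84.0 and 63.6 CPM in the wild type libraries. It rose 1.67-fold (log2 fold change 0.74, SE 0.16, adjusted p = 0.0305). Scap (ENSMUSG00000032485) had 58.5 and 62.8 CPM in the Rad21 KO libraries, against 43.6 and 31.9 CPM in the wild type libraries, and rose 1.61-fold (log2 fold change 0.68, SE 0.17, adjusted p = 0.0434). In both genes the groups did not overlap, and wild type replicate 2 was the lowest library. Omitting Rad21 KO replicate 2 ended the calls of Insig1 (0.63) and Scap (0.65), and so did omitting wild type replicate 2 (0.54 for Insig1, 0.47 for Scap). Without the filter on low counts both calls were lost too (0.73 for Insig1, 0.68 for Scap). With the replicate block, Insig1 (0.74) and Scap (0.70) were not called.

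Insig2, the second retention factor, narrowly missed the threshold. It had 50.2 and 41.3 CPM in Rad21 KO libraries, against 24.9 and 32.5 CPM in wild type libraries (log2 fold change 0.67, SE 0.18, adjusted p = 0.0538), and it passed when Rad21 KO replicate 2 (0.82) or wild type replicate 2 (0.87) was omitted. Srebf1, the SREBP gene best known for fatty acid synthesis, had 200.3 and 179 CPM in Rad21 KO libraries, against 159 and 146 CPM in wild type libraries (log2 fold change 0.31, SE 0.11, adjusted p = 0.109). Its groups did not overlap. Srebf2, the SREBP gene best known for cholesterol synthesis, had 176 and 169 CPM in Rad21 KO libraries, against 207 and 169.5 CPM in wild type libraries (log2 fold change -0.13, SE 0.12, adjusted p = 0.543). The lowest Srebf2 values of the genotypes were almost equal. The table gives 1 value per gene, so the promoter isoforms of Srebf1 were not separated, and RNA levels do not show how much SREBP protein was cleaved.

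Stard4, a small carrier that moves sterol between membranes and a known SREBP target, had 86.5 and 104 CPM in Rad21 KO libraries, against 83.9 and 62.3 CPM in wild type libraries (log2 fold change 0.38, SE 0.17, adjusted p = 0.193). The Rad21 KO libraries were above the wild type libraries by a margin that was narrow between the nearest pair. It was called higher without wild type replicate 1 (0.61).

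Of 4 tested fatty acid synthesis genes, 1 was called, as higher, where 12.8% of all tested genes were called and 7.60% were called higher. Fasn (ENSMUSG00000025153), which encodes the synthase that builds palmitate, had 209.6 and 201 CPM in the Rad21 KO libraries, against 132 and 128 CPM in the wild type libraries. Replicates differed little and the groups lay far apart. Fasn rose 1.58-fold (log2 fold change 0.66, SE 0.10, adjusted p = 0.00736) and was called under all 12 alternative settings, at 0.62 to 0.70. The 2 enzymes that supply its substrates had values in the other direction. ATP citrate lyase Acly, which makes cytosolic acetyl-CoA, had 125 and 213 CPM in Rad21 KO libraries, against 237 and 259.8 CPM in wild type libraries (log2 fold change -0.56, SE 0.22, adjusted p = 0.153). The Rad21 KO libraries disagreed about its size, and without Rad21 KO replicate 2 Acly was called lower (-0.97).

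Acetyl-CoA carboxylase Acaca, which makes malonyl-CoA, had 35.0 and 31.5 CPM in Rad21 KO libraries, against 55.5 and 37.0 CPM in wild type libraries (log2 fold change -0.47, SE 0.20, adjusted p = 0.178), and was called lower without wild type replicate 2 (-0.74). The desaturase Scd2, which puts a double bond into newly made fatty acids, had 388 and 346 CPM in Rad21 KO libraries, against 455 and 359.8 CPM in wild type libraries (log2 fold change -0.15, SE 0.14, adjusted p = 0.513). The groups overlapped. Its relative Scd1, the main form in liver and fat, had 0 and 4 counts in Rad21 KO libraries, against 4 and 1 counts in wild type libraries, and was below the filter. Counts of 3 per library correspond to 0.410 to 0.417 CPM. With no filter on low counts Scd1 had a log2 fold change of -0.30 with an SE of 1.42, so that a moderate difference was not detectable at this depth.

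Both sterol export genes rose, where 7.60% of all tested genes were called higher. Abcg1 (ENSMUSG00000024030), which passes cholesterol to HDL and is a known LXR target, had 575 and 551 CPM in the Rad21 KO libraries, against 334 and 268 CPM in the wild type libraries. It rose 1.87-fold (log2 fold change 0.90, SE 0.13, adjusted p = 0.00673). Abca1 (ENSMUSG00000015243), which passes cholesterol to lipid-poor apolipoprotein A-I, had 339 and 347 CPM in the Rad21 KO libraries, against 215 and 223 CPM in the wild type libraries. It rose 1.57-fold (log2 fold change 0.65, SE 0.09, adjusted p = 0.00733). In both genes the groups were further apart than the replicates. Abca1 was called under all 12 alternative settings, at 0.60 to 0.67, and Abcg1 under 11, at 0.75 to 1.07, the exception being no filter on low counts (0.90).

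Neither LXR receptor gene was called. Nr1h2, the broadly expressed LXR, had 70.8 and 111 CPM in Rad21 KO libraries, against 79.8 and 81.0 CPM in wild type libraries (log2 fold change 0.17, SE 0.20, adjusted p = 0.620). The 2 Rad21 KO libraries fell on either side of the wild type libraries. Nr1h3, the LXR of macrophages and liver, had 6 and 12 counts in Rad21 KO libraries, against 3 and 4 counts in wild type libraries, and was below the filter. Its groups did not overlap, and with no filter on low counts it was not called (log2 fold change 1.33, SE 0.64). Mylip, another known LXR target, had 133 and 124 CPM in Rad21 KO libraries, against 104 and 98.5 CPM in wild type libraries (log2 fold change 0.35, SE 0.11, adjusted p = 0.0738). It is named here after its value was seen and belongs to a list of sterol transport, ester and LXR partner genes. Of the 13 tested genes of that list, 5 had a log2 fold change above 0 and 8 below. Lpcat3 stood at -0.08 (SE 0.12) with overlapping groups. Abca7 stood at -0.40 (SE 0.13) with both Rad21 KO libraries below both wild type libraries.

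**Figure D2:**
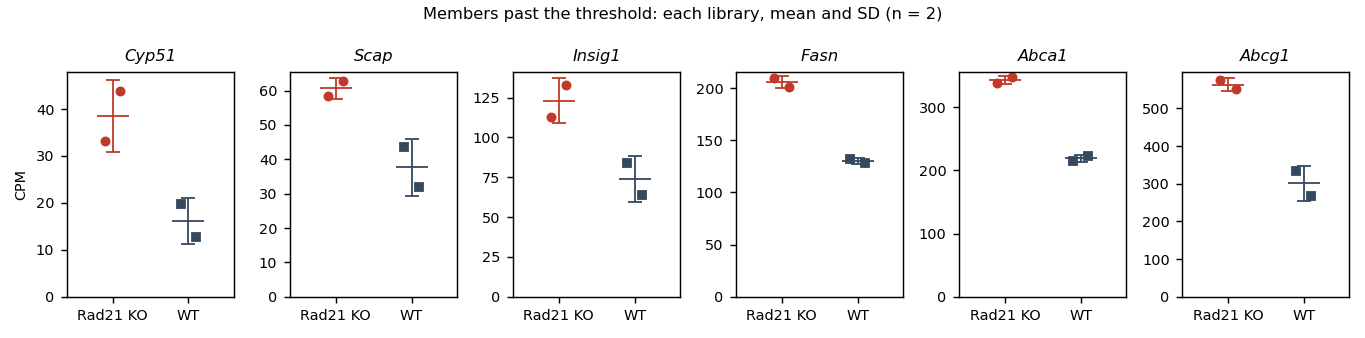
CPM of the 6 genes that passed the threshold, with 1 panel per gene and an axis from 0. Points are libraries, the dash is the mean and the error bar the SD (n = 2); in each panel both Rad21 KO libraries lie above both wild type libraries.

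Macrophages and fat cells use many of these genes strongly, so their markers were read beside the export genes. The 6 macrophage and monocyte markers summed to 16.8 and 20.8 CPM in Rad21 KO libraries, against 29.4 and 34.6 CPM in wild type libraries. Of 4 tested, 1 was called, the integrin gene Itgam, which was lower, where 5.17% of all tested genes were called lower. Without Itgam the other 5 summed to 8.49 and 12.2 CPM in Rad21 KO libraries, against 11.9 and 10.7 CPM in wild type libraries, and the groups overlapped. The lysozyme gene Lyz2 had a log2 fold change of 0.34 and was not called. The macrophage markers Adgre1 and C1qa were at 1.23 CPM or less in every library. The 4 fat cell markers with a row summed to 0.411 and 0.695 CPM in Rad21 KO libraries, against 0.820 and 1.11 CPM in wild type libraries. The 5 thymic epithelium markers summed to 24.6 and 28.6 CPM in Rad21 KO libraries, against 17.8 and 17.3 CPM in wild type libraries. Among these Epcam was called higher (log2 fold change 3.08, SE 0.36), and the higher sum rested on this gene. Psmb11, the other tested marker, had 14.9 and 16.3 CPM in Rad21 KO libraries, against 15.0 and 15.5 CPM in wild type libraries. Psmb11 was not called (log2 fold change 0.03, SE 0.18), and its groups overlapped. Krt5 and Krt8 were at 0.683 CPM or less in every library, with overlapping groups. Foxn1 was at 0 in 1 library of each genotype and at most at 0.273 CPM. The part of other cells in the results was not tested. In bulk RNA, fewer cells of a type and less RNA per cell cannot be told apart.

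Beyond the 32 genes, 76 other genes of lipid metabolism in 6 lists were read in the same fit, of which 73 were tested, 9 rose and 5 fell (19.2% called, against 12.8% of all tested genes, 7.60% higher and 5.17% lower). The counts of the single lists below are small and stand beside those same shares. The largest share was in glycerolipid and phospholipid synthesis, with 5 of 15 genes higher and 1 lower. Dgat1, an enzyme that makes triglyceride by adding the last fatty acid, had 60.5 and 100.2 CPM in the Rad21 KO libraries, against 21.5 and 22.9 CPM in the wild type libraries. The Rad21 KO libraries differed from each other, and both were above wild type. Dgat1 rose 3.63-fold (log2 fold change 1.86, SE 0.24, adjusted p = 0.00531). Dgat2, a second enzyme of that step, had 29 and 30 counts in Rad21 KO libraries, against 5 and 6 counts in wild type libraries (log2 fold change 2.40, SE 0.42, adjusted p = 0.0143). Its call was lost without either wild type replicate (2.27 and 2.54).

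Further genes that rose make the intermediates of these lipids. The phosphatidate phosphatase Lpin2 rose to 105 and 107 CPM in Rad21 KO libraries, against 55.6 and 50.3 CPM in wild type libraries (log2 fold change 1.00, SE 0.12, adjusted p = 0.00362). Pcyt1a, the rate-limiting enzyme of phosphatidylcholine synthesis, rose to 63.4 and 68.2 CPM in Rad21 KO libraries, against 23.6 and 40.6 CPM in wild type libraries (log2 fold change 1.04, SE 0.24, adjusted p = 0.0341). The choline kinase Chka (0.65, SE 0.13) also rose and the ethanolamine kinase Etnk1 (-0.44, SE 0.09) fell on the scale of log2 fold change; both are named here after their values were seen. Chka was not called without wild type replicate 1 (0.51). Etnk1 was not called when 1 library, whichever it was, was omitted (-0.41 to -0.45), nor with the replicate block (-0.44). Without the filter on low counts Pcyt1a (1.03), Chka (0.65) and Etnk1 (-0.44) were not called.

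Soat1 and Lipa, genes of sterol ester metabolism, fell. Soat1, which stores cholesterol as ester in the endoplasmic reticulum, had 64.3 and 56.1 CPM in the Rad21 KO libraries, against 209 and 176 CPM in the wild type libraries. It was 3.19-fold lower (log2 fold change -1.67, SE 0.13, adjusted p = 0.00142). Lipa, the lysosomal lipase that splits cholesterol esters and triglycerides, had 174 and 154 CPM in the Rad21 KO libraries, against 293 and 273 CPM in the wild type libraries (log2 fold change -0.78, SE 0.11, adjusted p = 0.00630). Both were called under all 12 alternative settings. They were the 2 genes called among 13 tested in the list of sterol transport, esters and LXR partners. Of the macrophage and monocyte markers, Itgam was also lower in the Rad21 KO libraries, while the summed levels of the other 5 overlapped between genotypes. The part of such cells in these falls was not tested. Nceh1, another ester hydrolase, named here after its value was seen, had 51.1 and 33.8 CPM in Rad21 KO libraries, against 30.7 and 26.9 CPM in wild type libraries (log2 fold change 0.56, SE 0.21, adjusted p = 0.136).

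Fatty acid activation and elongation had called genes on both sides, 2 higher and 1 lower of 17 tested. Acsl1, which couples fatty acids to CoA, rose to 34.9 and 30.7 CPM in Rad21 KO libraries, against 10.1 and 11.6 CPM in wild type libraries (log2 fold change 1.59, SE 0.18, adjusted p = 0.00327). Elovl5, which lengthens polyunsaturated fatty acids, rose to 144 and 157 CPM in Rad21 KO libraries, against 89.2 and 77.1 CPM in wild type libraries (log2 fold change 0.85, SE 0.12, adjusted p = 0.00667). Elovl6, which lengthens palmitate, fell to 2.46 and 2.92 CPM in Rad21 KO libraries, against 6.01 and 6.92 CPM in wild type libraries (log2 fold change -1.26, SE 0.32, adjusted p = 0.0457). The call of Elovl6 was lost without any 1 of the 4 libraries (-1.14 to -1.37), in DESeq2 (-1.26), with the replicate block (-1.26) and without the filter on low counts (-1.26).

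In fatty acid oxidation 1 of 11 tested genes was called. Cpt1a, which admits fatty acids to mitochondria, rose to 92.7 and 75.3 CPM in Rad21 KO libraries, against 34.7 and 31.9 CPM in wild type libraries (log2 fold change 1.34, SE 0.15, adjusted p = 0.00327). Among 8 partners of SREBP processing and turnover, the ubiquitin ligase Syvn1 rose (log2 fold change 0.66, SE 0.14, adjusted p = 0.0260). Omitting Rad21 KO replicate 1 (0.55), wild type replicate 1 (0.67) or wild type replicate 2 (0.65) ended this call. Among 9 genes of the isoprenoid branches, Pdss1, a subunit of the synthase of the ubiquinone tail, fell to 16.3 and 20.0 CPM in Rad21 KO libraries, against 30.9 and 41.0 CPM in wild type libraries (log2 fold change -0.98, SE 0.20, adjusted p = 0.0236). Pdss1 was not called when Rad21 KO replicate 1 (-0.84) or wild type replicate 2 (-0.77) was omitted. Without the filter on low counts neither Syvn1 (0.66) nor Pdss1 (-0.99) was called. Syvn1 overlaps the protein-coding gene Mrpl49 and Pdss1 overlaps Abi1 in RefSeq, so both counts are uncertain.

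**Figure D3:**
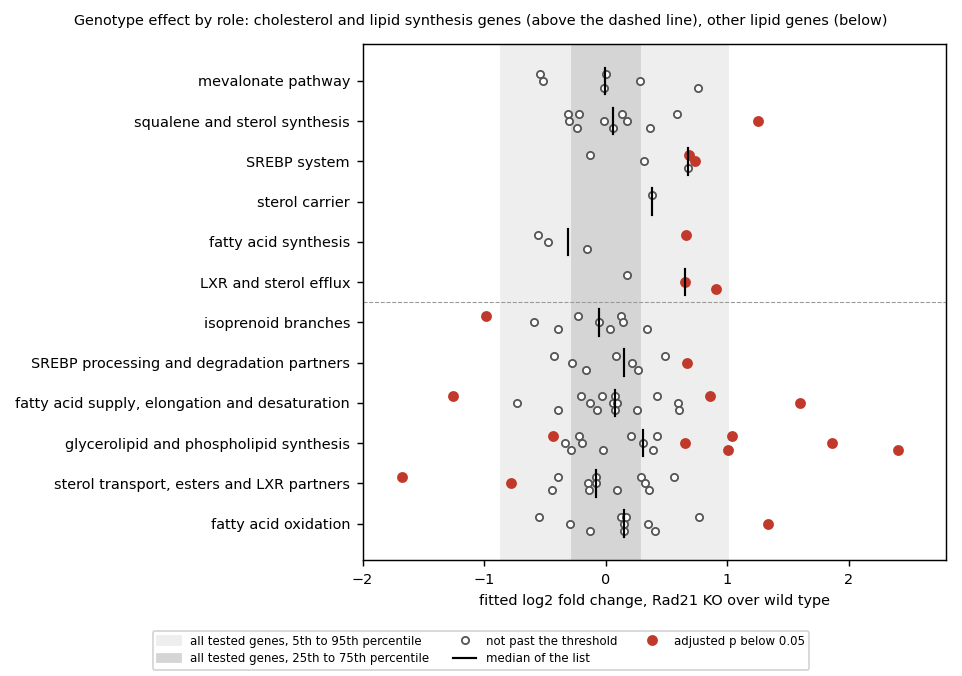
Fitted log2 fold change, Rad21 KO over wild type, of each tested gene by role. Filled points passed an adjusted p of 0.05, open points did not, the vertical tick is the list's median and the grey bands span the 25th to 75th and the 5th to 95th percentile of all 12003 tested genes; the SREBP and the LXR and export genes have the highest medians, at 0.67 and 0.65.

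**Figure D4:**
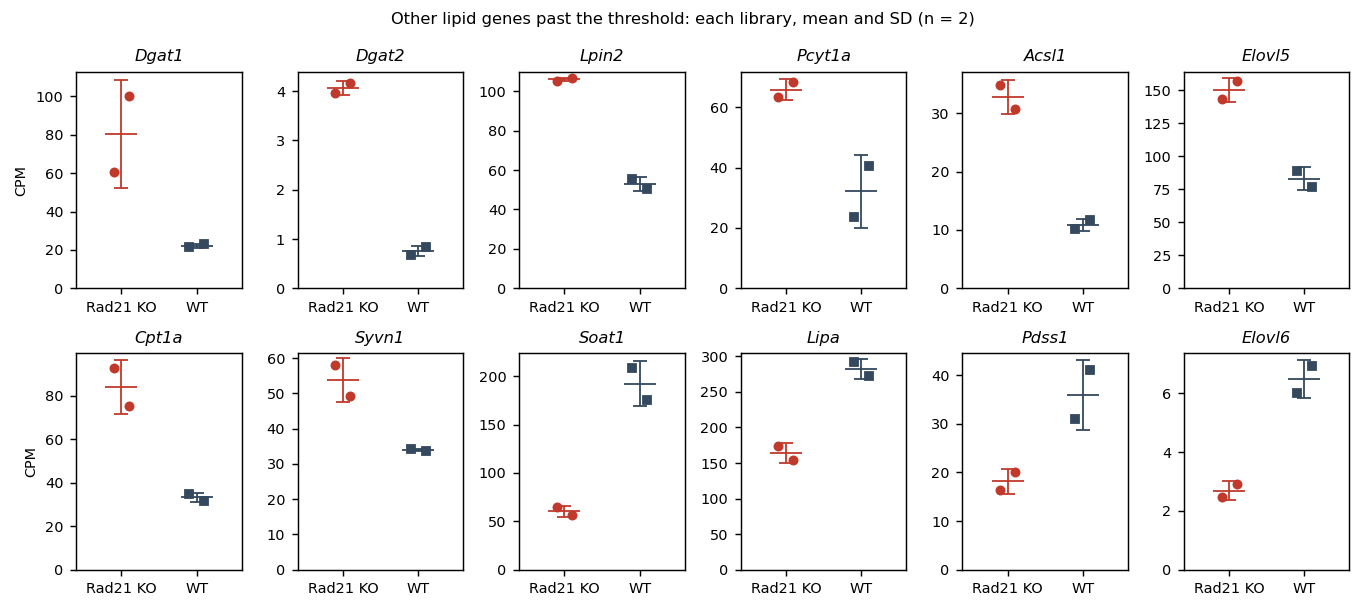
CPM of the 12 other lipid genes named by rule that passed the threshold, with 1 panel per gene and an axis from 0. Points are libraries, the dash is the mean and the error bar the SD (n = 2); Soat1, Lipa, Pdss1 and Elovl6 are lower in the Rad21 KO libraries and the other 8 are higher.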

How the data were processed

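RNA-seq was made from sorted double-positive thymocytes with ribosomal RNA depletion, per the labels' protocols. The authors deposited 1 table of count equivalents, treated as estimated counts; all were whole, so the rounding applied changed nothing. The submitters' processing notes name mm9. The sources used here do not give the aligner, counter or strand setting. The Rad21 KO columns are headed with a digit of the gene name missing. The members Fdft1, Tm7sf2, Srebf1 and Acaca and the called genes Pdss1 and Syvn1 overlap another protein-coding gene in RefSeq, so their counts are uncertain. Symbols matched 17342 of 17849 identifiers. Peak lists and Hi-C were not used here.

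Genotypes were compared by the quasi-likelihood test of edgeR 4.0.16 (R 4.3.3) after filterByExpr and TMM, without a block and at an adjusted p below 0.05. limma 3.58.1 and DESeq2 1.42.0 served as alternatives, beside other scalings and filters, a replicate block and omission of each library. SEs are the log2 fold change over the square root of the F statistic. The fit was tested on simulated counts. Replicates were not the same library deposited again: the chi-square of their counts over its degrees of freedom was 85.9 for Rad21 KO and 7.43 for wild type. These values include Lars2 and Gm15564, which took 34.5% and 12.6% of the Rad21 KO counts, and use raw totals. They do not measure the typical spread per gene. The median log2 difference between replicates over all tested genes was 0.19 for Rad21 KO and 0.17 for wild type. Members and lists were chosen with earlier results of these data known. Named genes are all members, up to 4 called genes with the largest change in each other list, and Rad21. Where no gene of a list was called, its most abundant gene was to be named; every list had a called gene. Depth limits the precision of genes with few counts, and counting floors cover counting error only.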

Additional observations from a re-analysis of the deposited data

How the results depend on the processing

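Directions of the 6 called members held under all 12 alternatives, and RLE factors, upper-quartile factors, DESeq2, limma-voom, a mean of at least 5 CPM and leaving out Lars2 and Gm15564 kept all 6 calls. The higher calls were 6, but 2 with no filter on low counts (Abca1 and Fasn), where 17003 genes were tested, and 3 with the replicate block (Abca1, Abcg1 and Fasn). Over all genes the calls were 912 higher and 621 lower, but 285 and 148 with no filter, and 574 and 373 without wild type replicate 2. Without single libraries the members' higher calls were 5 to 7 and the lower calls 0 to 1, where the 1 was Acly or Acaca. The median log2 fold change of the members moved by less than the spread between replicates (0.09) under every alternative. Among the other lipid genes the higher calls were 9, but 6 with no filter. Their lower calls were 5, but 2 with no filter, 3 with the replicate block and 2 to 4 without single libraries; the causes were not tested. Some uncalled members changed sign. Mvd was 0.0005 in limma-voom. Across the omissions of single libraries the log2 fold change ran over -0.21 to 0.21 for Mvd, -0.044 to 0.064 for Fdps, -0.0014 to 0.14 for Fdft1, -0.096 to 0.058 for Sc5d, -0.012 to 0.29 for Dhcr7, -0.27 to 0.024 for Srebf2, -0.32 to 0.026 for Scd2 and -0.17 to 0.47 for Nr1h2. Leaving out a library leaves 1 in its genotype, which is then assumed to vary like the other genotype. The labels number the libraries of each genotype, but the deviations of same-numbered libraries from their group means correlated at r = 0.04 (across 12003 genes, which are not independent), so the numbers were not taken as pairs. No scaling moved the median of all tested genes by more than 0.1 on the log2 scale. Scd1 and Nr1h3 had few counts and were tested with no filter, where neither was called.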
